A study of Mus musculus with 12 samples.

Results

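The Period genes Per1, Per2 and Per3 and the cryptochrome genes Cry1 and Cry2 encode the repressors of the mammalian circadian clock. They were chosen by name, and all 5 of them were found among the 12591 genes that the authors listed for mouse embryonic fibroblasts. The cells carried PER2::LUC on the strain labelled C57 PER2::LUC, that is, 1 Per2 allele was fused to luciferase, so reads on Per2 came from a normal and a fused allele together. The line was immortalized, and confluent dishes were given 10 µM Deazaneplanocin A (DZ, an inhibitor of the enzyme AHCY), 1 mM adenine or 1 mM S-adenosylmethionine (SAM), and a 4th group (CTL) received none of these. All 12 dishes, 3 per group, also received 3.3 mM HCl, the solvent of adenine, and polyadenylated RNA was taken from each after 24 h. The study asked whether these compounds, which act on the methyl cycle, change expression in similar ways.

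In the clock of mammalian cells, the transcription factors CLOCK and BMAL1 bind DNA motifs called E-boxes and switch on the Period and cryptochrome genes. PER and CRY proteins then gather in the nucleus and silence CLOCK and BMAL1, so that the RNA of both families rises and falls about once a day. D-boxes, bound by DBP, TEF and HLF and by the repressor NFIL3, and response elements of REV-ERB and ROR set the phase of single members. As RNA was taken at 1 time only, a shift of the rhythm and a change of its mean level cannot be told apart. In bulk RNA, neither can fewer cells of a type and less RNA per cell. The paper describes a dexamethasone shock for cultures measured by luminescence. Whether the dishes used for RNA had this shock, or were in phase with each other, is not stated there.

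Short promoter stretches of the members are shown because exact matches to clock motifs near their starts differed among the 5 genes. Whether these motifs had a part in the changes of RNA was not tested. The stretches were read from GRCm39 at the GENCODE vM39 canonical transcript starts, from 250 bases before to 50 bases after the start, on both strands. The motifs searched were the E-box CACGTG, its variant CACGTT (E′-box, AACGTG when read on the other strand), the D-box TTATGTAA and the cAMP response element TGACGTCA. Each stretch is written 5′ to 3′ on the strand of the gene, with the motif in capitals and 12 bases on either side.
Per1, E-box, chr11:68989234-68989263, plus strand: accccttaacgaCACGTGggccctcaattg
Per2, D-box, chr1:91387152-91387183, minus strand: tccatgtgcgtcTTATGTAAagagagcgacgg
Per2, E′-box, chr1:91387024-91387053, minus strand: agcgcgcgcggtCACGTTttccactatgtg
Per3, first D-box, chr4:151129308-151129339, minus strand: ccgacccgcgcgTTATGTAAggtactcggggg
Per3, second D-box, chr4:151129261-151129292, minus strand: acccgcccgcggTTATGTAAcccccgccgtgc
Cry1, E′-box and E-box, chr10:85020961-85021009, minus strand: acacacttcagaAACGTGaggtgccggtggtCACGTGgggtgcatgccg
Cry2, E′-box, chr2:92264563-92264592, minus strand: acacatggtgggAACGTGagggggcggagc

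Per1 and Cry1 each held 1 E-box, 22 and 29 bases before the start. This motif was found in 10.5% of the 10948 promoters of listed protein-coding genes. Per2, Cry1 and Cry2 held an E′-box, as did 6.16% of all promoters, and in Per2 it began 5 bases after the start. D-boxes were found in Per2, 125 bases before the start, and in Per3, 187 and 140 bases before it, against 0.548% of all promoters. Per3 was the only one of the 10948 promoters with 2 or more exact copies of TTATGTAA. None of the 5 held TGACGTCA in this window, as against 3.41% of all promoters. Promoters at other annotated starts of the members were not searched.

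Each library held between 45649534 and 56789090 reads over the genes of the table. Values are the authors' log2 CPM, the log2 of a gene's reads relative to a scaled library size, and whole reads were recovered from them. SAM replicate 3 stood apart from its group, with a median absolute deviation from the group mean of 0.0587 over all genes, against 0.0330 to 0.0411 in the other 11 libraries. All 8 listed fibroblast markers, among them Col1a1, Vim and Pdgfra, were expressed, with summed levels of 21841 to 22281 CPM in CTL, 27665 to 28259 in DZ, 24224 to 26540 in adenine and 15862 to 17240 in SAM. Against CTL, 7 of the 8 rose and 1 fell under both DZ and SAM (adjusted p under 0.01 from limma). Under adenine 5 rose and 1 fell. Of all genes, 22.6%, 30.6% and 33.7% rose under DZ, adenine and SAM, and 23.4%, 31.0% and 35.7% fell. The marker that fell was Vim under DZ (-0.39 on the log2 scale). It was Fn1 under adenine (-0.43) and SAM (-1.58). Of the markers of leukocytes, epithelium, endothelium, adipocytes and neural cells, only Cd68, Fabp4 and Tubb3 were listed. Cd68 was at 3.03 to 4.0 CPM in CTL, 2.73 to 3.78 in DZ, 10.8 to 12.3 in adenine and 15.6 to 17.7 in SAM. The corresponding ranges of Fabp4 were 1.84 to 2.30, 3.71 to 4.61, 2.70 to 3.87 and 5.15 to 5.94, and those of Tubb3 were 6.74 to 7.81, 6.56 to 6.91, 13.6 to 14.8 and 4.69 to 5.42. Whether this had a part in the changes described here was not tested.

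Relative to the length of their canonical transcripts, the members spanned about an order of magnitude in CTL. Cry1 was at 8.29 ± 0.16 CPM per kb (SD, n = 3), Per1 at 6.82 ± 0.19, Cry2 at 4.35 ± 0.14, Per3 at 3.04 ± 0.22 and Per2 at 0.749 ± 0.070. Per2, the gene of the reporter, was lowest in every group, and 10.6% of all listed genes were below it in CTL on the log2 CPM scale. In SAM, Per3 with 4.11 ± 0.13 CPM per kb stood above Cry2 with 2.52 ± 0.31, whereas in CTL, DZ and adenine Cry2 was the higher of the pair. Per1 was above Cry1 in adenine, with 6.37 ± 0.20 against 5.28 ± 0.47, and in SAM, with 7.77 ± 0.36 against 7.21 ± 0.33. When each gene was divided by the length of all its annotated exons, Per1 was above Cry1 in CTL too, with 5.96 ± 0.16 against 5.07 ± 0.097, so the order of these 2 genes depended on the length used.

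Compared with CTL, the members changed in different directions within each treatment except adenine, where every called member fell. DZ lowered Per3 and Per1 and raised Cry1. Adenine lowered Per2, Cry1 and Cry2. SAM raised Per3 and Per1 and lowered Cry2. Of all 12591 genes, 45.9% were called changed under DZ, 61.6% under adenine and 69.3% under SAM, so 3 called members of 5 in each comparison was not far from what genes in general did. Calls are those of limma at a Benjamini-Hochberg adjusted p under 0.01 over all genes, and changes are relative to the authors' scaling. The median log2 fold change of the 5 members was -0.14 under DZ, -0.31 under adenine and 0.19 under SAM, and that of all genes was -0.0057, -0.0030 and -0.015. Groups that did not overlap CTL were found for 3 members under DZ, 5 under adenine and 4 under SAM, against 65.4%, 74.7% and 77.6% of all genes. All 3 comparisons share the same CTL dishes. Without SAM replicate 3, the same members were called under SAM, with log2 fold changes of 0.23 for Per1, 0.45 for Per3 and -0.71 for Cry2.

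**Figure D1:**
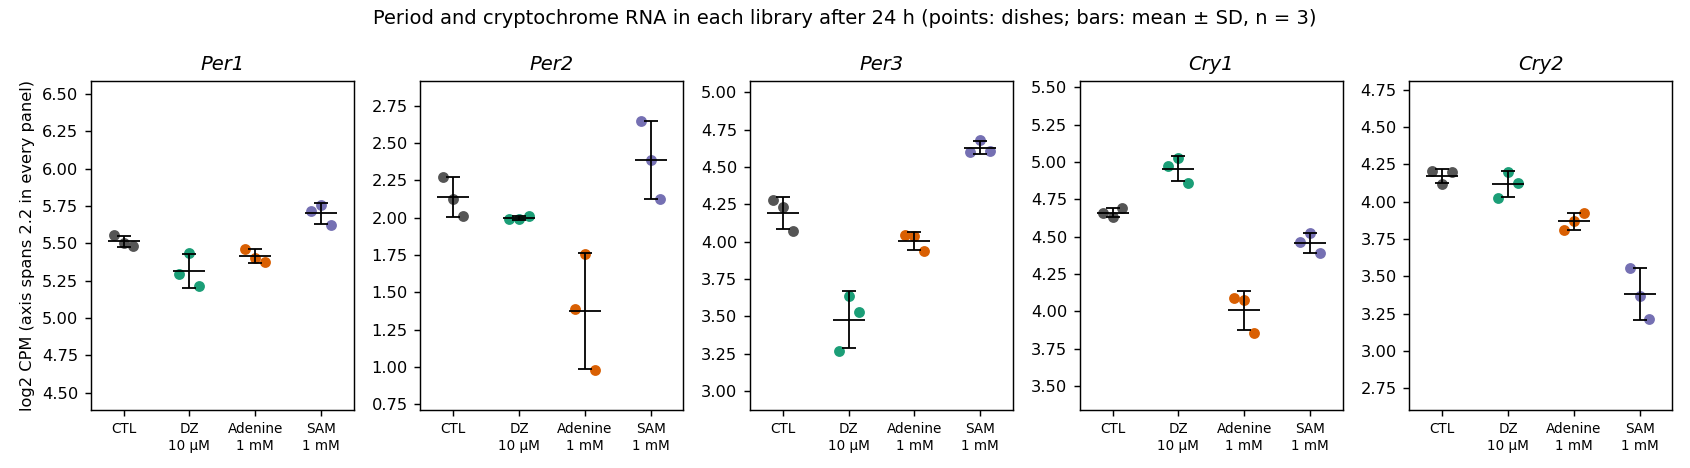
Level of each member in every library, in log2 CPM, for CTL, 10 µM DZ, 1 mM adenine and 1 mM SAM. Points are dishes, horizontal bars are means and error bars are SD (n = 3), and every panel spans the same height. Per3 was lowest in DZ, Per2 and Cry1 in adenine and Cry2 in SAM, while the points of Per2 were spread most in adenine and SAM.

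Per1 (chromosome 11, 68986035 to 69002300, 23 exons) encodes the Period protein whose gene also responds quickly to hormones and cAMP. Its levels were 5.56, 5.50 and 5.48 log2 CPM in the CTL dishes, 5.29, 5.44 and 5.22 in DZ, 5.46, 5.40 and 5.38 in adenine, and 5.72, 5.76 and 5.62 in SAM. Each treated group lay wholly on one side of CTL, above it in SAM and below it in DZ and adenine, but the ranges of adenine and DZ overlapped. The changes were small. Per1 fell by 0.20 on the log2 scale under DZ (SE 0.054, adjusted p = 0.00571 from limma) and rose by 0.19 under SAM (SE 0.054, adjusted p = 0.00513 from limma), and its log2 fold change under adenine was -0.099 (adjusted p = 0.115 from limma). The value under adenine depended on the scaling, with -0.037 from plain read totals and -0.15 from median centring, and was called with neither. With plain read totals as scaling, the rise under SAM was 0.31, and the fall under DZ (-0.17) was no longer called (adjusted p = 0.0122 from limma). It was also not called without DZ replicate 1 or 3 or CTL replicate 1 or 2. The rise under SAM was not called without SAM replicate 1 or 2 or CTL replicate 2 or 3.

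Per2 (chromosome 1, 91343700 to 91387069, 23 exons) is needed for normal rhythms in most tissues and is the gene that carries the reporter in these cells. It was at 2.27, 2.13 and 2.01 log2 CPM in CTL, 1.99, 1.99 and 2.01 in DZ, 1.39, 1.76 and 0.98 in adenine, and 2.65, 2.39 and 2.12 in SAM. These levels rest on 182 to 212 reads per CTL library, 189 to 194 in DZ, 96 to 186 in adenine and 216 to 370 in SAM. All adenine dishes were below all others, whereas CTL overlapped both DZ and SAM. Per2 fell by 41.0% under adenine (95% interval -54.0% to -24.2%), a log2 fold change of -0.76 (SE 0.17, adjusted p = 8.60e-04 from limma). Without adenine replicate 3, the lowest dish, the log2 fold change was -0.56, and without adenine replicate 2 it was -0.95. Under DZ the log2 fold change was -0.14 with a 95% interval from -0.50 to 0.22 (adjusted p = 0.497), and under SAM 0.25 with an interval from -0.11 to 0.61 (adjusted p = 0.192), neither of them called by limma. Leaving out CTL replicate 1 gave -0.070 for DZ, and leaving out SAM replicate 1 or 3 gave 0.12 or 0.38 for SAM. After quantile normalization they were -0.089 and 0.15. Its spread among the dishes of adenine and SAM (SD 0.39 and 0.26) was more than the counting of reads alone would give (0.12 and 0.084), and in DZ it was less (0.014 against 0.10). A spread above that of counting was found in 17 of the 20 combinations of member and group, with the highest ratio, 3.46, for Per1 in DZ. The counting value takes recovered reads as independent. As they are coverage-based estimates from paired-end sequencing, that value may be too small.

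Per3 (chromosome 4, 151081373 to 151129140, 21 exons) is dispensable for the core rhythm in mice and is the member with 2 D-boxes shown above. Its levels were 4.28, 4.23 and 4.07 log2 CPM in CTL, 3.27, 3.64 and 3.53 in DZ, 4.04, 4.04 and 3.94 in adenine, and 4.60, 4.68 and 4.60 in SAM. No 2 groups overlapped, in the order SAM, CTL, adenine and DZ, although only 0.032 separated the lowest CTL dish from the highest adenine dish. Per3 fell by 39.1% under DZ (95% interval -46.2% to -31.1%), a log2 fold change of -0.72 (SE 0.084, adjusted p = 3.65e-06 from limma), larger in size than that of 95% of genes in this comparison. It rose by 35.1% under SAM (19.4% to 52.9%), a log2 fold change of 0.43 (SE 0.084, adjusted p = 2.14e-04 from limma). Under adenine its log2 fold change of -0.19 was not called (adjusted p = 0.0555 from limma), except after quantile normalization (-0.30). Annotated exons of Per3 share 154 bases with Uts2 and 449 with a long noncoding RNA, both on the opposite strand, and a long noncoding RNA shares 334 with Per1. Neither Uts2 nor these long noncoding RNAs were among the listed genes. The paper states that libraries were made with a stranded kit, but whether strand was used in quantifying reads is not given in the sources used here.

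Cry1 (chromosome 10, 84967560 to 85021252, 13 exons) encodes the stronger of the 2 cryptochrome repressors, whose loss shortens the period. It was at 4.66, 4.63 and 4.69 log2 CPM in CTL, 4.97, 5.03 and 4.86 in DZ, 4.09, 4.08 and 3.86 in adenine, and 4.47, 4.52 and 4.39 in SAM. The groups did not overlap, with DZ above CTL, and SAM and then adenine below it. Cry1 rose by 22.5% under DZ (95% interval 11.1% to 35.1%), a log2 fold change of 0.29 (SE 0.066, adjusted p = 0.00145 from limma), the only member that rose in this comparison. Under adenine it fell by 36.5% (-42.4% to -30.0%), a log2 fold change of -0.65 (SE 0.066, adjusted p = 2.90e-07 from limma). The lower level under SAM, with a log2 fold change of -0.20 (95% interval -0.34 to -0.061), missed the threshold (adjusted p = 0.0115 from limma). It was called with quantile normalization (-0.28) and with median centring (-0.24), and was -0.080 with plain read totals as scaling.

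Cry2 (chromosome 2, 92233894 to 92264474, 12 exons) encodes the weaker repressor, whose loss lengthens the period. Its levels were 4.20, 4.12 and 4.20 log2 CPM in CTL, 4.03, 4.20 and 4.12 in DZ, 3.81, 3.87 and 3.92 in adenine, and 3.56, 3.37 and 3.21 in SAM. DZ overlapped CTL, while adenine was below both, and SAM was below adenine. Cry2 fell by 42.3% under SAM (95% interval -48.7% to -35.0%), a log2 fold change of -0.79 (SE 0.080, adjusted p = 2.17e-07 from limma). Under adenine it fell by 19.1% (-28.1% to -8.92%), a log2 fold change of -0.31 (SE 0.080, adjusted p = 0.00307 from limma). The fall under adenine was not called with plain read totals as scaling (-0.24, adjusted p = 0.0122 from limma), nor without adenine replicate 1 or CTL replicate 1 or 3. Under DZ the log2 fold change was -0.056 with an interval from -0.23 to 0.11 (adjusted p = 0.568 from limma), and it was -0.010 without DZ replicate 1, -0.098 without DZ replicate 2 and -0.031 with plain read totals. A long noncoding RNA on the opposite strand, D930015M05Rik, shares 296 exonic bases with Cry2 and was not among the listed genes.

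**Figure D2:**
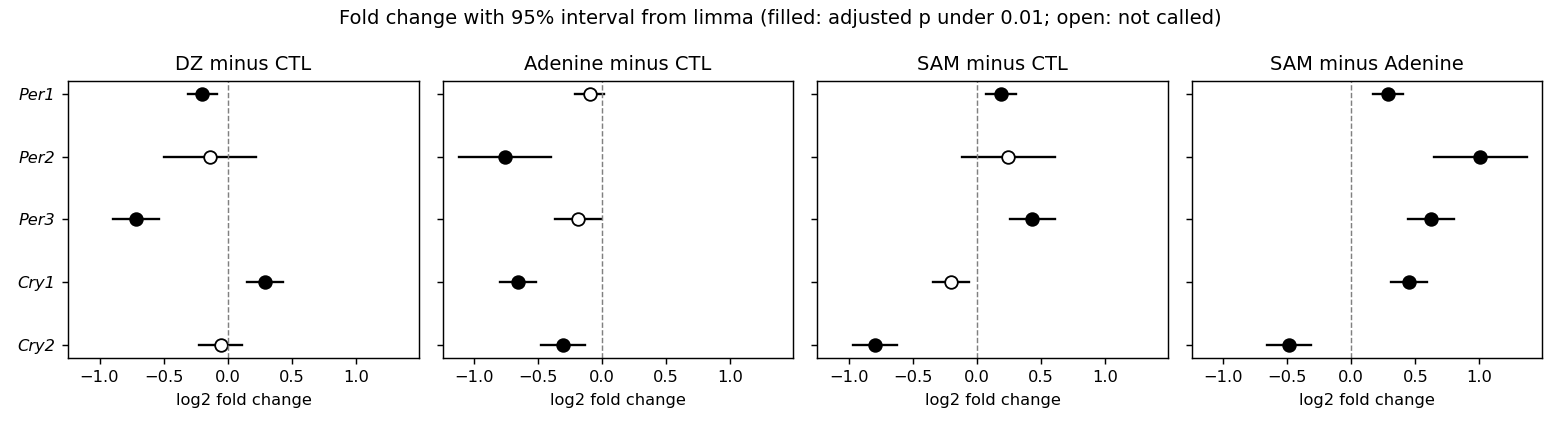
Log2 fold change of each member (points) with its 95% interval from limma (lines) in the comparisons of DZ, adenine and SAM with CTL and of SAM with adenine. Filled points had an adjusted p under 0.01, open points did not. In the comparison of SAM with adenine all 5 points are filled, with Cry2 alone below 0.

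SAM and adenine were given at the same dose and for the same time, and SAM carries adenine as the base of its adenosyl group. Tested directly against each other, the treatments differed in all 5 members, whereas 42.7% of all genes were called in this comparison, 20.8% higher and 22.0% lower under SAM. Per1, Per2, Per3 and Cry1 were higher under SAM and Cry2 was lower, and no SAM dish overlapped an adenine dish in any of them, as in 61.3% of all genes. Per2 differed most, with a 2.01-fold level under SAM, a log2 difference of 1.01 (SE 0.17, adjusted p = 1.35e-04 from limma) that was larger in size than that of 98.4% of genes. Without 1 library it lay between 0.81 and 1.20. The level of Per3 was 1.54-fold that under adenine (adjusted p = 1.71e-05), that of Cry1 1.37-fold (adjusted p = 3.78e-05) and that of Per1 1.22-fold (adjusted p = 3.72e-04). The difference of Cry2 between SAM and adenine was -28.7% (95% interval -36.6% to -19.7%, adjusted p = 1.13e-04 from limma). The median difference of the 5 members was 0.45 on the log2 scale, that of all genes 0.00012. All 5 calls were made in each of the other fits in which the gene was tested, and without SAM replicate 3 the differences were 0.32, 1.14, 0.63, 0.49 and -0.40 for Per1, Per2, Per3, Cry1 and Cry2. DZ was given at a dose 2 orders of magnitude lower than adenine and SAM, so beyond the order of the levels given for each member, DZ was not tested against them.

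The scaling of a library cancels in ratios between its members, apart from the prior count of 2 held in the values, which follows the library size. The ratios of 3 pairs were computed, and each was compared in 4 ways by an exact permutation test of 3 dishes against 3, in which p cannot be below 0.1. The log2 ratio of Cry1 to Cry2 was 0.46, 0.52 and 0.49 in CTL, 0.95, 0.82 and 0.74 in DZ, 0.28, 0.21 and -0.069 in adenine, and 0.91, 1.15 and 1.18 in SAM. It was thus higher than in CTL in every DZ and SAM dish and lower in every adenine dish. The mean differences were 0.35, -0.35 and 0.59 for DZ, adenine and SAM against CTL, each with the smallest p the exact test allows (0.1, and 0.133 adjusted over the 12 tests). The difference between SAM and adenine was 0.94 (exact p = 0.1).

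The log2 ratio of Per1 to Per2 stood out from CTL in adenine. It was 3.28, 3.38 and 3.47 in CTL, 3.30, 3.45 and 3.20 in DZ and 3.07, 3.37 and 3.50 in SAM, and these ranges overlapped (exact permutation p = 0.6 for DZ and 0.8 for SAM). In adenine the ratio was 4.08, 3.64 and 4.39, above every CTL dish, with a mean difference of 0.66 (exact p = 0.1). With a pseudocount of 1 CPM this mean difference was 0.48. The log2 ratio of Per2 to Cry1 was -2.39, -2.51 and -2.68 in CTL. It was -2.98, -3.04 and -2.85 in DZ, below every CTL dish, and -1.82, -2.14 and -2.27 in SAM, above every CTL dish (exact p = 0.1 for each). Under adenine, where both genes fell, the ratio of Per2 to Cry1 was -2.70, -2.32 and -2.87 and overlapped CTL (exact permutation p = 0.6).

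**Figure D3:**
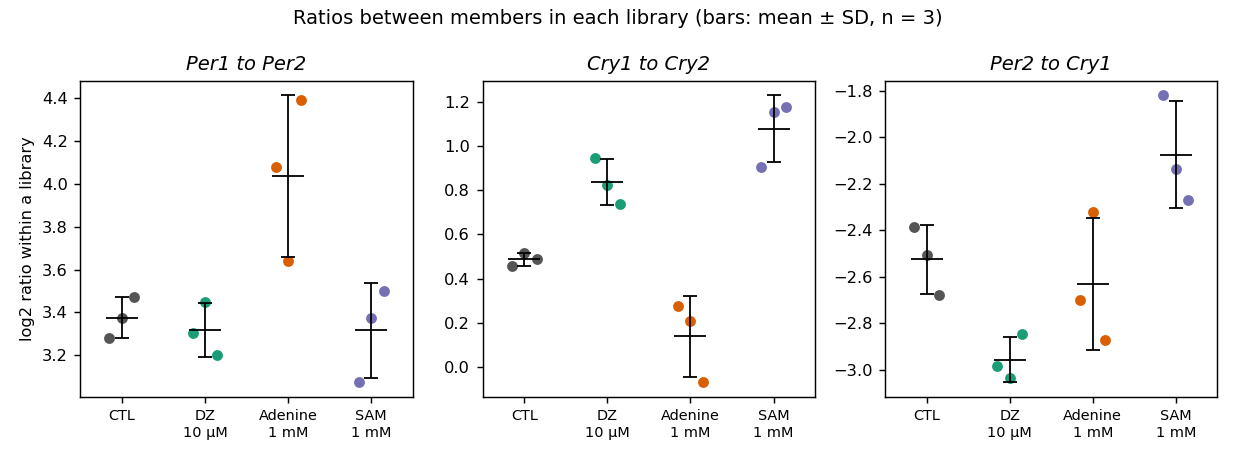
Log2 ratio of the CPM of 2 members within each library, for CTL, 10 µM DZ, 1 mM adenine and 1 mM SAM (points: dishes, bars: mean ± SD, n = 3). Cry1 to Cry2 is above CTL in DZ and SAM and below it in adenine, Per1 to Per2 is high in adenine, and Per2 to Cry1 is lowest in DZ and highest in SAM.

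The other genes of the loop were counted in lists of the activators, of targets with E-boxes, and of enzymes and partners that act on PER and CRY proteins. All 4 activators were listed, and 1 rose and 1 fell under DZ, 1 rose under adenine and 2 fell under SAM. Of all genes, 45.9%, 61.6% and 69.3% were called in these comparisons, so the share of called activators was near or below that of genes in general. Bmal1, the partner of CLOCK, rose by 0.31 under DZ and 0.67 under adenine and was not called under SAM (0.19), and Bmal2 fell by 0.29 under DZ and by 0.22 under SAM. Clock itself fell by 0.15 under SAM. In the direct comparison Bmal1 was lower under SAM than under adenine (-0.48, adjusted p = 1.91e-05 from limma), opposite in direction to Per1, Per2, Per3 and Cry1.

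Of 8 E-box targets, 7 were listed. Under adenine 6 of them fell and none rose, against 31.0% and 30.6% of all genes, and the median log2 fold change of the 7 was -0.43. Under SAM 5 fell and 1 rose (35.7% and 33.7% of all genes, list median -0.27), and under DZ 2 fell and 1 rose (23.4% and 22.6%, list median -0.0010). Dbp, which binds D-boxes, fell in all 3 comparisons, by 0.99 under DZ, 1.35 under adenine and 0.71 under SAM. Its relative Tef fell by 0.20, 0.47 and 0.27. Ciart, which encodes a repressor of CLOCK and BMAL1, fell by 2.87 under SAM and fell by 1.00 under adenine, and was not called under DZ (0.34). Nr1d1, which encodes REV-ERB alpha, rose by 0.35 under DZ and fell by 0.43 under adenine and 0.46 under SAM. Per3, with 2 D-boxes in the window searched, had log2 fold changes of -0.72, -0.19 and 0.43 in the same 3 comparisons. Per2, with 1 in that window, had -0.14, -0.76 and 0.25. Whether D-boxes or the genes that act on them had a part in these values was not tested. Between SAM and adenine, 5 of the 7 targets were higher under SAM and 1 was lower, Ciart (-1.87). Of all genes, 20.8% were higher and 22.0% lower in this comparison.

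Of 14 listed factors that act on PER and CRY proteins, 13 were measured, and 3 rose and 2 fell under DZ, 3 rose and 6 fell under adenine, and 3 rose and 6 fell under SAM. Under DZ 22.6% of all genes rose and 23.4% fell, under adenine 30.6% and 31.0%, and under SAM 33.7% and 35.7%. The 9 of 13 called under adenine and under SAM stand beside 61.6% and 69.3% of all genes, so these shares are no result about the list. Btrc, a ubiquitin ligase subunit for PER proteins, fell by 0.35 under DZ and rose by 0.16 under adenine. Csnk2a2, a catalytic subunit of casein kinase 2, fell by 0.22 under DZ, 0.44 under adenine and 0.31 under SAM. Gsk3b, which encodes a kinase of clock proteins, fell by 0.25 under adenine and 0.82 under SAM. Timeless, known mainly for its part in DNA replication forks, rose by 0.43 under DZ, 2.02 under adenine and 2.17 under SAM. Nfil3, which encodes the repressor at D-boxes, rose by 0.40 under DZ and fell by 0.89 under SAM, and Rora, an activator of Bmal1, fell by 0.70 under SAM.

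**Figure D4:**
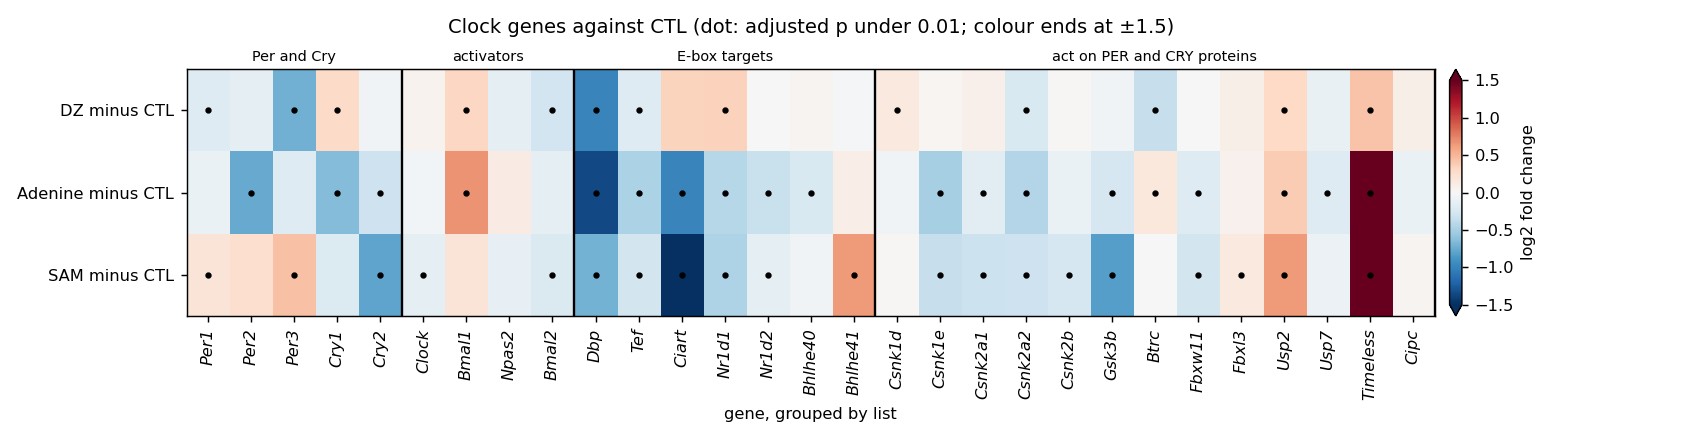
Log2 fold change against CTL (colour) of the members and of the genes of 3 clock lists under DZ, adenine and SAM. Dots mark an adjusted p under 0.01 from limma, and the colour scale ends at 1.5 in either direction. Dbp is lower in all 3 rows, whereas Per3 is lower under DZ and higher under SAM.

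Genes induced by glucocorticoids and by cAMP or serum, signals that also induce Per1, were counted as well. Of 5 measured glucocorticoid-induced genes, 3 rose and 2 fell in each comparison with CTL, where 45.9%, 61.6% and 69.3% of all genes were called in either direction. Those with the smallest adjusted p were Fkbp5 (0.51, 1.39 and 1.42 under DZ, adenine and SAM) and Sgk1 (0.60, 0.81 and 0.96). Of 8 measured genes induced by cAMP or serum, 6 rose under DZ, 5 under adenine and 7 under SAM, while 0, 1 and 1 fell. Of all genes, 22.6%, 30.6% and 33.7% rose and 23.4%, 31.0% and 35.7% fell. Egr1 rose by 0.30, 1.61 and 1.09, Nr4a1 rose by 0.19, 0.76 and 1.14, and Nr4a2 rose by 0.93 under DZ and fell by 0.47 under adenine and 0.59 under SAM. Per1, by comparison, had log2 fold changes of -0.20, -0.099 and 0.19.

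Across the 12 libraries, which fall into the 4 groups and so share the treatments, the protein-coding gene most like Per1 was Hdac6 (Pearson r = 0.956), followed by Ppcs (0.953) and Wdr59 (0.953). Hdac6 was also among the 3 nearest to Per3 (r = 0.977), between Tead2 (0.982) and Fblim1 (0.976). Per1 and Per3 had an r of 0.920 with each other. Per3 ranked 10th of 10947 genes by likeness to Per1, and Per1 ranked 106th by likeness to Per3. Per2 was nearest to Itga3 (0.947), Dmac2 (0.902) and St6gal1 (0.883), lower values than for the other members. Cry1 was nearest to Acsl4 (0.978), Mmut (0.977) and Anapc7 (0.975). Cry2 was nearest to Brwd1 (0.984), Dip2c (0.983) and Gsk3b (0.983), and its own r with Per1 and Per3 was below 0 (-0.656 and -0.682).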

How the data were processed

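Polyadenylated RNA of 12 dishes was sequenced. Per the labels and the paper's methods, the authors used Trimmomatic, HISAT2 (GRCm39, guided by GENCODE vM27), StringTie and edgeR, and dropped genes under 1 CPM in any sample. Versions are not given in the sources used here. The deposited values are log2 CPM on normalized library sizes, and scaling factors solved from them were 0.962 to 0.968 in CTL and 1.047 to 1.054 in SAM. With a prior count of 2 removed, 100% of values were within 0.05 of whole reads, which are coverage-based estimates. The labels do not say whether dishes came from separate cultures, so p-values measure only the spread between these samples.

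All genes were fitted with limma 3.58.1 (R 4.3.3) in a single model of 12 libraries with a variance trend, followed by contrasts of each treatment with CTL and of SAM with adenine. Adjusted p-values are Benjamini-Hochberg over 12591 genes, with a threshold of 0.01, and intervals are 95%. The fit and the recovery were also run on simulated data. The simulation for the fit changed far fewer genes than were called here, so it does not represent these data. The members and gene lists were chosen with earlier results of these data known. Named genes are the 5 members, from each list the 2 with the lowest adjusted p per comparison, and the 3 protein-coding genes with the highest Pearson r to each member. Any other list gene was chosen after its values were seen. 1 list is not reported in full here. Symbols and positions are from GENCODE vM39 (12575 identifiers matched). Python 3.11.15, scipy 1.17.1 and pysam 0.24.0 were used for tables and sequences.

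Other fits left out the variance trend, made it robust, added a pseudocount of 1 CPM, required a mean of 3 log2 CPM, centred on medians, normalized by quantiles, scaled by plain read totals, used voom on recovered reads, took an FDR of 0.05, fitted each comparison separately, added a replicate block or left out each library.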

Additional observations from a re-analysis of the deposited data

How the results depend on the processing

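Each of the 20 comparisons of a member kept its direction in every fit. Under a minimum mean of 3 log2 CPM, Per2 was not tested. The fall of Per1 under DZ lost its call with no variance trend (-0.20) and with plain read totals (-0.17), and without 1 library it ranged from -0.26 to -0.15. Its rise under SAM lost its call with no variance trend (0.19), median centring (0.15) and quantile normalization (0.16), and ranged from 0.16 to 0.23 without 1 library. The fall of Cry2 under adenine lost its call with plain read totals (-0.24) and ranged from -0.33 to -0.28. Per3 under adenine was called with quantile normalization (-0.30). Cry1 under SAM was called with robust empirical Bayes (-0.20), median centring (-0.24), quantile normalization (-0.28), voom (-0.20), an FDR of 0.05 (-0.20), separate models (-0.20) and the replicate block (-0.20). Same-numbered libraries shared little, as their deviations from the group means had Pearson r between -0.142 and 0.181 over 12591 genes. These values cannot show whether same-numbered dishes were handled together. The replicate block changed no other call of a member (8734 against 8731 genes called under SAM). The numbers of members called stayed between 2 and 3 against CTL and at 5 between SAM and adenine when 1 library was left out. Of the ratios, Per1 to Per2 turned from -0.058 to 0.00026 under DZ without DZ replicate 3 and from -0.060 to 0.061 under SAM without SAM replicate 1, with lowest values of -0.12 and -0.15 without another library. Per2 to Cry1 under adenine turned from -0.11 to 0.044 with a pseudocount of 1 CPM and ranged from -0.26 to 0.015 without 1 library. Plain read totals moved the median of all genes under SAM from -0.015 to 0.11. Depth limits Per2 most, with 96 to 370 reads per library.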
